A study of Zea mays with 8 samples.

Results

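Low nitrogen (LN, 0.04 mM) was compared with high nitrogen (HN, 4 mM) in the division zone of leaf 6 of the maize inbred line B73, the stretch at the leaf base where cells divide before they pass into the elongation zone above it. The comparison used 4 of the 8 RNA sequencing libraries of the series, 2 from LN plants and 2 from HN plants, all grown in hydroculture and carrying no mutation or transgene named in the labels. The other 4 libraries come from the elongation zone at the same supplies and are used here only to ask whether a response differed between the zones. Of 43110 assembled loci in the deposited table, 22540 averaged at least 1 FPKM (sequenced fragments scaled to transcript length and library size) in LN or HN division zones and were tested. The design text speaks of 2 biological replicates per tissue and no label says which plants they came from, so the tests measure the spread between these libraries.

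Plants take up nitrogen mostly as nitrate, which nitrate reductase and nitrite reductase turn into ammonium, and glutamine synthetase and glutamate synthase carry the ammonium into amino acids. In a growing grass leaf the division zone supplies the cells that later lengthen and mature, so its cell cycle genes, growth regulators and young plastids are all read from one block of tissue. Growth-regulating factors (GRFs) and their coactivators, the GRF-interacting factors (GIFs), are known in maize and Arabidopsis for setting how many cells divide in a growing leaf. YABBY and several homeodomain factors are known for leaf polarity and patterning.

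Summed FPKM were 652957 and 746006 in the LN libraries and 852561 and 751883 in the HN libraries, and 21385 to 21659 loci per library reached 1 FPKM. Read numbers are not known, so counting error could not be given. Replicates correlated at r = 0.965 in LN and 0.969 in HN over the loci tested, and libraries of different supply at 0.926 to 0.938, with loci not being independent replicates. The first principal component held 60.1% of the variance and separated both LN from both HN libraries. Marker lists were set beside the tissue label, which they did not test, since they were not summed in the elongation zone. DNA replication genes, which mark dividing cells, summed to 1036 and 1206 FPKM in LN and to 962 and 861 FPKM in HN. Mitosis and cytokinesis genes summed to 556 and 566 FPKM in LN and 519 and 494 FPKM in HN. Core histone genes overlapped between supplies, at 24680 and 34142 FPKM in LN and 27936 and 20102 FPKM in HN. For lengthening cells, expansins summed to 213 and 294 FPKM in LN and 202 and 160 FPKM in HN. Plasma membrane aquaporins summed to 1093 and 1468 FPKM in LN and 1082.5 and 946 FPKM in HN. KNOX genes, which mark the shoot meristem, summed to 34.9 and 39.2 FPKM in LN and 37.1 and 30.6 FPKM in HN, with KN-1, knox3, knox4 and lg4b listed at 0 in all 4 libraries. Photosystem genes, which mark maturing blade, summed to 620 and 873 FPKM in LN and 1605 and 1482 FPKM in HN. In whole tissue, fewer cells of a type and less RNA per cell cannot be told apart, and the part of the photosystem difference in the results below was not tested.

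Under LN 643 loci were called higher and 1334 lower (limma on log2(FPKM + 1), Benjamini-Hochberg adjusted p under 0.05), which is 2.85% and 5.92% of the loci tested, or 8.77% in either direction. All log2 changes below are LN minus HN on the log2(FPKM + 1) scale, which understates changes of genes near or under 1 FPKM. The log2 change had a median size of 1.07 among the loci called higher and 0.979 among those called lower, and 371 rises and 629 falls were larger than 1. Both LN libraries lay above both HN libraries in each of the 643, and below both in each of the 1334. LN and HN libraries were also apart at 60.6% of all loci tested, and the test favours such loci. The count rested on having both replicates: it was 31 higher and 9 lower without LN replicate 1, 16 and 3 without LN replicate 2, 21 and 57 without HN replicate 1, and 24 and 62 without HN replicate 2. Of the 127 called loci named by rule or added here, 106 were called in none of these 4 fits. Scaling every library to an equal total moved the median change of all loci to 0.17 and turned the balance of the calls, to 2123 higher and 1273 lower, so 62.5% of called loci were then higher in place of 32.5%.

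**Figure D1:**
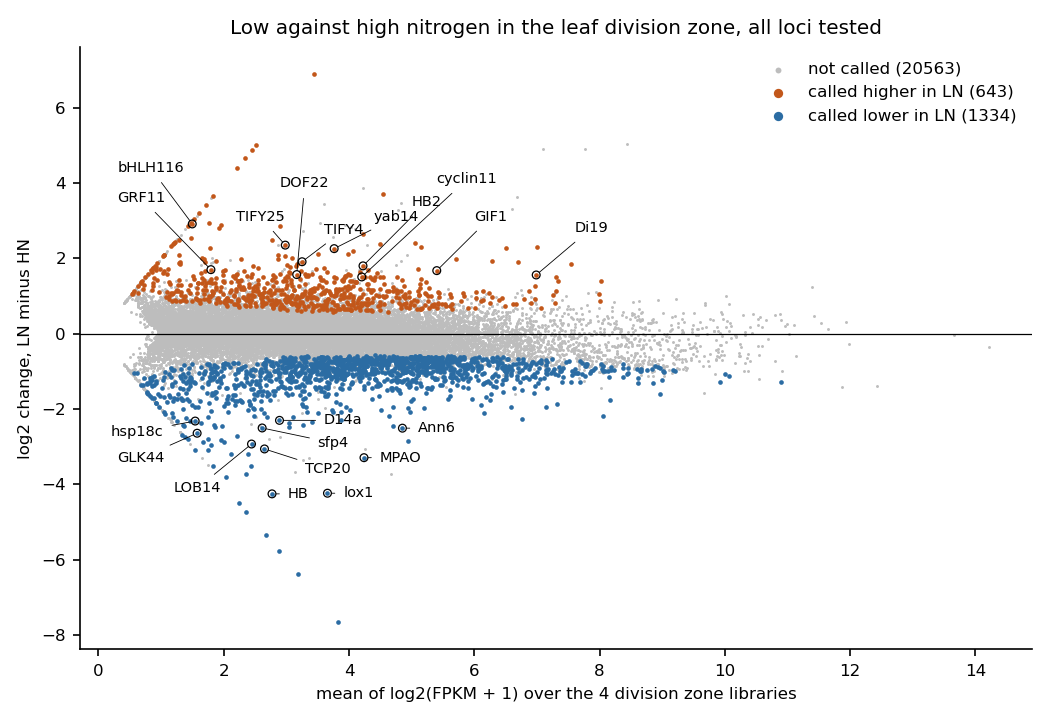
Log2 change (LN minus HN) against mean log2(FPKM + 1) over the 4 division zone libraries, 1 point per locus tested; colours mark the 643 loci called higher and the 1334 called lower, and circles the 10 named loci with the largest rise and the 10 with the largest fall. Diagonal edges at the left are loci at or near 0 in one group, and named changes reach from -4.25 (HB) to 2.92 (bHLH116).

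The largest named falls were in a hemoglobin, a lipoxygenase, a polyamine oxidase and 3 transcription factors. HB, a hemoglobin (chromosome 9, 145596856 to 145598153, B73 RefGen_v3), had 0.459 and 0.677 FPKM in LN, against 30.4 and 27.2 FPKM in HN (log2 change -4.25 ± 0.15 SE, adjusted p = 0.00283). Plant hemoglobins are known for scavenging nitric oxide, and their genes for responding to nitrate. The lipoxygenase lox1, whose enzyme family oxygenates polyunsaturated fatty acids, had 1.46 and 2.44 FPKM in LN, against 42.2 and 68.3 FPKM in HN (-4.23 ± 0.29, adjusted p = 0.0117); its locus is 143463 bases long. MPAO, a polyamine oxidase that releases hydrogen peroxide in the cell wall, had 4.77 and 5.33 FPKM in LN, against 50.4 and 66.9 FPKM in HN (-3.29 ± 0.17, adjusted p = 0.00968). In these 3 genes both LN libraries lay far below both HN libraries, where the choice of named loci already required that they not overlap.

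LOB14, of the lateral organ boundaries family, had 0.851 and 1.10 FPKM in LN, against 17.7 and 11.1 FPKM in HN (-2.93 ± 0.25, adjusted p = 0.0164). GLK44, of the G2-like family, had 0.104 and 0.289 FPKM in LN, against 7.5 and 5.52 FPKM in HN (-2.64 ± 0.21, adjusted p = 0.0164). TCP20, of the TCP family, had 0.857 and 1.55 FPKM in LN, against 23 and 12.7 FPKM in HN (-3.06 ± 0.32, adjusted p = 0.022), but its locus shares its span with another, so its reads may be split between them. Ann6, an annexin of the calcium-dependent membrane-binding family, fell by 2.51 to 8.74 and 14.1 FPKM in LN, against 79.5 and 58.0 FPKM in HN, and sfp4 fell by 2.50 to 1.54 and 1.60 FPKM in LN, against 12.9 and 14.3 FPKM in HN. The small heat shock gene hsp18c had 0.301 and 0.311 FPKM in LN and 6.41 and 4.73 FPKM in HN (-2.32). D14a, named for the strigolactone receptor DWARF14, had 1.99 and 2.73 FPKM in LN and 17.9 and 13.3 FPKM in HN (-2.3). Of these 10 genes HB alone was called whichever of the 4 libraries was left out, and Ann6, sfp4 and D14a were called in none of those fits.

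The largest named rises were almost all in regulators. The transcription factor bHLH116 (chromosome 10, 76600002 to 76602261) had 6.23 and 7.33 FPKM in LN, against 0.0565 and 0 FPKM in HN (2.92 ± 0.18, adjusted p = 0.00968), so it was close to absent at high nitrogen. TIFY25, of the family that holds the JAZ repressors of jasmonate signalling, had 15.6 and 18.3 FPKM in LN and 2.40 and 2.6 FPKM in HN (2.35 ± 0.14, adjusted p = 0.00968), and TIFY4 of the same family 13.8 and 22.1 FPKM in LN and 4.81 and 3.14 FPKM in HN (1.91). The YABBY factor yab14 (chromosome 10, 133133767 to 133136401) had 27.9 and 29.6 FPKM in LN, against 4.52 and 5.98 FPKM in HN (2.26 ± 0.16, adjusted p = 0.0124). In TIFY25, TIFY4 and yab14 the HN libraries were low but not silent, unlike in bHLH116.

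HB2, counted among the homeodomain genes by its symbol alone, had 33.3 and 34.5 FPKM in LN and 9.38 and 8.64 FPKM in HN (1.80). DOF22, of the Dof zinc finger family and at a locus that overlaps another, had 11.8 and 17.7 FPKM in LN and 3.27 and 5.34 FPKM in HN (1.57). Di19, named for a zinc finger family found by its drought response in Arabidopsis, was the most abundant of the 10, with 174 and 271 FPKM in LN and 83.4 and 63.8 FPKM in HN (1.56 ± 0.27, adjusted p = 0.0382). The cyclin named cyclin11 had 26.6 and 34 FPKM in LN and 11 and 8.91 FPKM in HN (1.51). GRF11 and GIF1 complete the 10 and are described with their family. Of the 10, bHLH116 and yab14 were called in some of the fits that left out 1 library, and the other 8 in none.

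**Figure D2:**
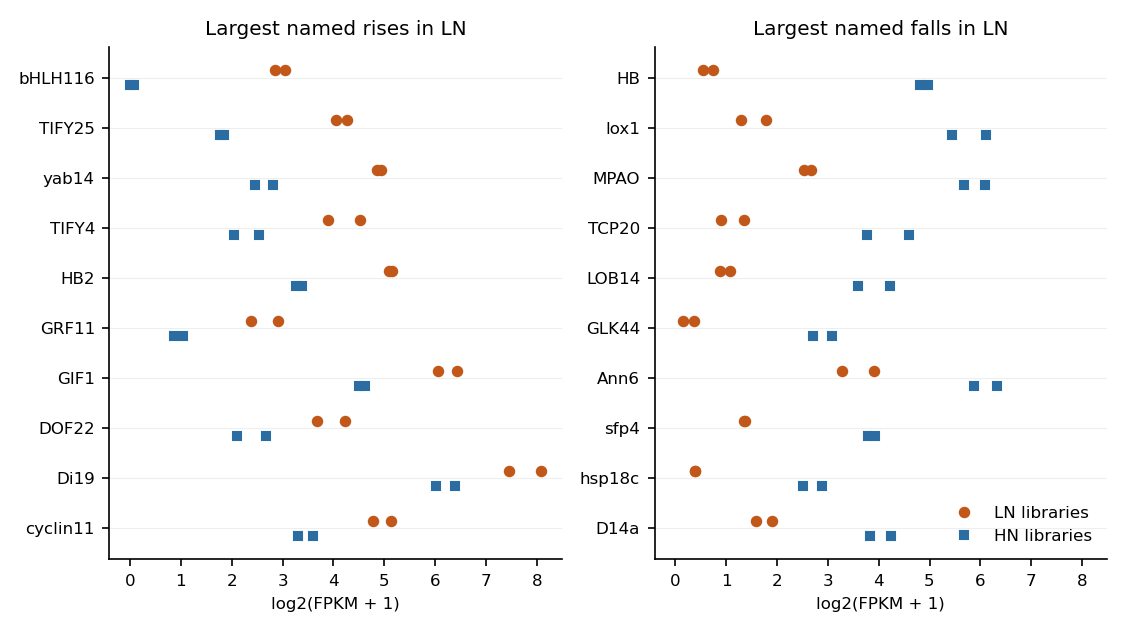
log2(FPKM + 1) in each LN library (circles) and each HN library (squares) for the 10 named loci with the largest rise and the 10 with the largest fall. The LN and HN points do not overlap in any of the 20 loci, which the choice of the loci required.

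Of 20 growth-regulating factor and GIF loci, all tested, 9 were called higher and 0 lower, and the median log2 change was 0.89, against -0.01 over all loci tested. GIF1, the coactivator (chromosome 1, 273393236 to 273396891), had 65.6 and 84.7 FPKM in LN, against 23.7 and 21.6 FPKM in HN, a 3.32-fold higher mean (1.68 ± 0.17, adjusted p = 0.0205). GRF11 had 4.2 and 6.55 FPKM in LN and 1.05 and 0.811 FPKM in HN (1.70), and GRF12 23 and 31.0 FPKM in LN and 9.99 and 9.37 FPKM in HN (1.38). GRF14 had 20.6 and 22.2 FPKM in LN and 10.04 and 10.7 FPKM in HN (0.98), and GRF2 13.6 and 14.9 FPKM in LN and 6.89 and 5.63 FPKM in HN (1.08). GRF13 (1.42), GRF1 (1.42), GRF3 (1.16) and GRF6 (1.004) made up the rest of the rises. The 9 rises ran from 0.98 to 1.70, and 3 of the 20 loci had a change below 0. At equal totals 13 members were called higher and 0 lower, against 2123 higher and 1273 lower of all 22614 loci tested. Equal totals and median ratio scaling moved the median change of all loci up, to 0.17 and 0.025. Neither scaling could therefore count against a rise. The calls of the list did not hold with any 1 library left out.

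NF-Y factors, which bind CCAAT boxes in promoters, had 6 calls among 11 loci, all higher in LN (median 0.79). NF-YA11 had 5.75 and 6.22 FPKM in LN and 1.81 and 1.58 FPKM in HN (1.37 ± 0.15, adjusted p = 0.0223), NF-YA7 13.7 and 13.0 FPKM in LN and 4.43 and 5.47 FPKM in HN (1.27), and NF-YA13 6.65 and 5.99 FPKM in LN and 2.39 and 2.02 FPKM in HN (1.19). CA2P16, named as a CCAAT-binding protein, had 15.0 and 16.8 FPKM in LN and 7.83 and 6.42 FPKM in HN (1.06). With the variance taken from all 8 libraries only 1 of the 6, NF-YA11, was still called, and NF-YA7, NF-YA13 and CA2P16 were among the calls lost.

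YABBY and leaf polarity genes had 4 calls among 13 loci, all higher in LN (median 0.39). Beside yab14 these were yab10, with 11 and 12 FPKM in LN and 4.03 and 3.40 FPKM in HN (1.41), YAB5, with 5.91 and 5.33 FPKM in LN and 3.01 and 2.79 FPKM in HN (0.76), and yabby15, with 56.5 and 63.7 FPKM in LN and 37.6 and 31.0 FPKM in HN (0.80). Among 27 homeodomain and HD-ZIP loci, 4 were called higher and none lower, with HB2 among the 4 by its symbol alone. The share called was 14.8%, against 8.77% of all loci tested. ZHD13, a zinc finger homeodomain gene, had 2.82 and 2.67 FPKM in LN and 0.776 and 0.332 FPKM in HN (1.28). The epidermal HD-ZIP gene ocl4 had 17.4 and 19.7 FPKM in LN and 11.5 and 11 FPKM in HN (0.67), and its relative HDZIV14_OCL14 14 and 16.5 FPKM in LN and 8.92 and 8.25 FPKM in HN (0.76). With all 8 libraries in the fit, 2 YABBY and 1 homeodomain loci were called.

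Basic helix-loop-helix (bHLH) factors had 7 calls among 32 loci (median 0.41), all rises of 0.79 to 2.92. Their share called was 21.9%, against 8.77% of all loci tested. After bHLH116 came bHLH108, with 5.47 and 4.14 FPKM in LN and 0.0608 and 0 FPKM in HN (2.49), bHLH24, with 6.18 and 7.06 FPKM in LN and 1.81 and 1.61 FPKM in HN (1.49), and bHLH23, with 47.8 and 57.8 FPKM in LN and 23.5 and 20.4 FPKM in HN (1.23). The first pair was almost silent at high nitrogen, while bHLH23 was well expressed in both groups. The 32 MYB and MYB-related loci held 4 rises and 1 fall, a share called of 15.6%. MYB34 had 26.1 and 33.8 FPKM in LN and 14.1 and 11.5 FPKM in HN (1.16), MYB-IF35 19.3 and 20.8 FPKM in LN and 10.1 and 6.62 FPKM in HN (1.19), and MYB59 8.71 and 9.75 FPKM in LN and 4.07 and 3.52 FPKM in HN (1.09). The fall was in MYB30 (-0.92), a call lost at equal totals. MYBR95 was listed at 0 in both HN libraries and at 1.11 and 1.15 FPKM in LN.

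The 15 tested GRAS and MADS loci held 3 rises and 1 fall, with 29 more members too low to test. The GRAS factor SCR, named for SCARECROW, had 116 and 142 FPKM in LN and 73.2 and 74.6 FPKM in HN (0.79), GRAS19 20.1 and 24.9 FPKM in LN and 10.5 and 8.48 FPKM in HN (1.16), and the MADS-box gene ZAGL1 18.0 and 19.9 FPKM in LN and 9.08 and 10.1 FPKM in HN (0.91). The fall was in the MADS-box gene MADS76, at 6.28 and 7.23 FPKM in LN and 15.4 and 15.2 FPKM in HN (-1.07). The 27 TCP and SBP loci held 2 rises and 1 fall, TCP20, a share called of 11.1%, near the 8.77% of all loci tested. TCP30 had 3.13 and 4.6 FPKM in LN and 0.208 and 0.349 FPKM in HN (1.92), and sbp3 2.01 and 2.39 FPKM in LN and 0.693 and 0.731 FPKM in HN (0.90). These lists therefore held members of both directions.

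The nitrogen signalling list, which takes genes by names such as LOB, LBD and GLK whatever their role, held 2 rises and 2 falls among 13 tested loci. LBD6, of the lateral organ boundaries family, rose to 5.70 and 7.47 FPKM in LN, against 2.6 and 2.08 FPKM in HN (1.18), and GLK23 to 3.51 and 4.41 FPKM in LN, against 1.59 and 0.871 FPKM in HN (1.16), opposite in direction to LOB14 and GLK44 of the same families. Of 11 Dof and GATA factors DOF22 rose, and GATA, of the GATA zinc finger family, fell to 11.6 and 11.4 FPKM in LN, against 19.9 and 21.9 FPKM in HN (-0.81), a call lost at equal totals. No member was called among 27 bZIP, 11 WRKY and 10 NAC factors and 3 KNOX genes. All 11 WRKY loci had a change above 0 in the values as deposited. At equal totals 2 bZIP, 4 WRKY and 3 NAC loci were called higher and 0 lower, against 2123 higher and 1273 lower of all 22614 loci tested. Among their most abundant members were WRKY1 with 22 and 23.5 FPKM in LN and 20.3 and 20.8 FPKM in HN (0.14), WRKY109 (0.20), NAC120 (-0.18), NAC12 (-0.10), bZIP83 (0.20), bZIP34 (-0.33), knox7 (0.10) and KNOX6 (0.03). Over all transcription factor lists together, a grouping made after the values were seen, 42 of 252 tested loci (16.7%) were called higher and 6 (2.38%) lower, with a median of 0.33. With 1 library left out, 0 to 2 of them were called higher and 0 to 3 lower. All loci tested were called higher in 2.85% and lower in 5.92%.

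Of 40 auxin response and transport loci 9 were called (22.5%, against 8.77% of all loci tested), all rises of 0.60 to 1.13 (median 0.28). The influx carrier gene aux1 (XLOC_004395) had 48.7 and 57.6 FPKM in LN and 26.3 and 26.1 FPKM in HN (0.99). A locus with the symbol AUX1 (XLOC_031190), whose role the names used here do not give, had 6.16 and 6.89 FPKM in LN and 3.1 and 2.25 FPKM in HN (1.04). Yucca2, of the flavin monooxygenases that make auxin, had 6.81 and 8.56 FPKM in LN and 2.82 and 3.09 FPKM in HN (1.13), and the efflux carrier gene PIN1d 17.1 and 16.5 FPKM in LN and 9.54 and 8.52 FPKM in HN (0.83). PIN1a (0.80), AUX22 (0.64) and the response factors ARF10 (0.75), ARF13 (0.68) and ARF28 (0.60) rose less. The calls of aux1 and Yucca2 were lost with all 8 libraries in the fit, and 0 of the 9 loci were called with any 1 library left out.

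Of 34 jasmonate loci 8 were called higher and 3 lower, a share called of 32.4%, against 8.77% of all loci tested. TIFY9 had 2.01 and 2.86 FPKM in LN and 0.0582 and 0.0533 FPKM in HN (1.69), and TIFY28 2.38 and 3.55 FPKM in LN and 0.229 and 0.140 FPKM in HN (1.73), so both were low in LN and nearly silent in HN, while TIFY20 rose by 1.68. The other falls beside lox1 were in lox6 (-1.26) and aos1, an allene oxide synthase gene (-1.19), and aoc2, of allene oxide cyclase, rose (0.98). Of 24 ethylene loci 4 were called (16.7%, against 8.77% of all loci tested), all higher in LN. They were AP2/ERF transcription factors, namely ERF1 with 11 and 13.9 FPKM in LN and 4.74 and 3.81 FPKM in HN (1.35), EREB161 (1.10), EREB160 (1.01) and EREB109 with 141 and 179 FPKM in LN and 90.0 and 87.8 FPKM in HN (0.83). Of 26 cytokinin loci 3 (11.5%, near the 8.77% of all loci tested) were called, all lower in LN. They were response regulators, which cytokinin induces: crr5 at XLOC_018025 had 6.77 and 5.88 FPKM in LN and 25.6 and 17.6 FPKM in HN (-1.61), a second locus named crr5 (XLOC_018031) 3.40 and 4.57 FPKM in LN and 11.4 and 8.71 FPKM in HN (-1.15), and RR6 1.47 and 1.89 FPKM in LN and 3.80 and 4.05 FPKM in HN (-0.88).

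Of 19 abscisic acid genes 1 rose and 1 fell, a share called of 10.5%, near the 8.77% of all loci tested. The receptor gene PYL7 had 3.81 and 4.92 FPKM in LN and 13.5 and 10.3 FPKM in HN (-1.26), and the kinase gene SnRK2.1 3.93 and 4.35 FPKM in LN and 1.68 and 1.23 FPKM in HN (1.07). Neither the 4 gibberellin genes nor the 3 brassinosteroid genes tested held a call. The DELLA genes D8 and d9 had log2 changes of 0.30 and 0.27, with 75.0 and 102 FPKM in LN and 76.1 and 66.6 FPKM in HN for D8. DWF1, of brassinosteroid synthesis, had 292 and 351.5 FPKM in LN and 353 and 310 FPKM in HN (-0.05), and brd103 a change of -0.16. LN and HN libraries overlapped in DWF1 and D8.

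**Figure D3:**
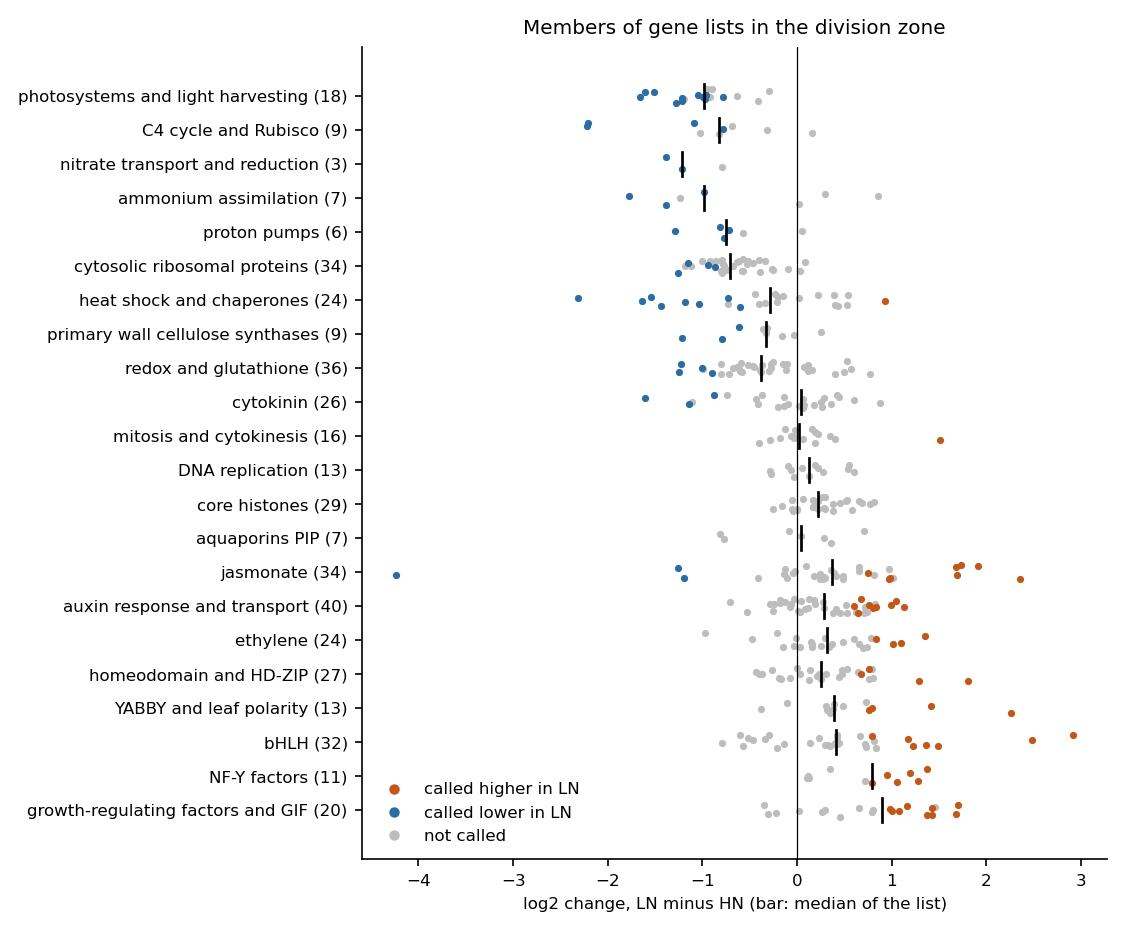
Log2 change (LN minus HN) of each tested member of 22 gene lists, 1 point per locus, with the number tested in brackets and a bar at the list's median; colours mark members called higher or lower. Photosystem, C4, proton pump and ribosomal protein members lie mostly left of 0, and NF-Y and growth-regulating factors mostly right of it.

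Nitrite reductase and nitrate reductase genes fell, while glutamine synthetase loci differed among themselves. Of 10 nitrate transport and reduction loci 3 reached 1 FPKM and 2 of those were called lower. NIR, nitrite reductase, had 3.39 and 3.93 FPKM in LN and 12.6 and 9.85 FPKM in HN (-1.38 ± 0.17, adjusted p = 0.0241), and NNR1, nitrate reductase, 0.291 and 0.379 FPKM in LN and 2.22 and 1.99 FPKM in HN (-1.22). The other 7 loci, among them nrt2, Nrt1.1 and NAR2.1, were at or under 0.372 FPKM in all 4 libraries. Of 7 ammonium assimilation loci 3 were called lower and 0 higher, and 3 had a change above 0. GLN2 at XLOC_005784, a glutamine synthetase, had 0.594 and 0.722 FPKM in LN and 4.84 and 4.53 FPKM in HN (-1.78), and GDH1, glutamate dehydrogenase, 8.13 and 8.95 FPKM in LN and 18.3 and 17.4 FPKM in HN (-0.98). Both loci share their span with another. A second locus named GLN2 also fell (-1.39). The most abundant member, Gln1-4, also a glutamine synthetase and singled out after its values were seen, was not called, with 365 and 440 FPKM in LN and 232 and 212 FPKM in HN (0.85). The list therefore summed to 441 and 530 FPKM in LN, against 344 and 319 FPKM in HN, and at equal totals 2 members were called higher and 4 lower. The asparagine synthetase asn1 was not called (0.28), with 66.1 and 69.9 FPKM in LN and 58.5 and 53.1 FPKM in HN.

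Most photosystem loci fell. All 18 tested photosystem and light harvesting loci had a change below 0 and 11 were called lower (median -0.98), from -1.65 to -0.79. The photosystem I subunit PSAH had 22.4 and 31.3 FPKM in LN and 86.9 and 84.0 FPKM in HN (-1.65), PSA3 5.57 and 6.26 FPKM in LN and 19.8 and 17.7 FPKM in HN (-1.51), and psbs1, which helps shed excess light energy, 2.31 and 3.34 FPKM in LN and 10.9 and 10.2 FPKM in HN (-1.61). Also lower were lhcb6 (-1.28), CAB1 (-1.22), psad1 (-1.21), fnr1 (-1.05), cab-m1 (-0.99), lhcb4 (-0.97) and PSA2 (-0.79). CAB48, named for chlorophyll a/b binding, had 6.66 and 6.96 FPKM in LN and 13.2 and 15.4 FPKM in HN (-0.97), but its locus spans 177177 bases and 4 identifiers. Of 9 C4 cycle and Rubisco loci 4 fell: the Rubisco small subunit loci rbcS, with 1.96 and 2.08 FPKM in LN and 13.6 and 12.4 FPKM in HN (-2.21), and RBCS, with 2.9 and 3.12 FPKM in LN and 16.3 and 19.0 FPKM in HN (-2.22), the malate dehydrogenase mdh6 (-1.09) and the phosphoenolpyruvate carboxylase pep7 (-0.79). ChlI, a magnesium chelatase subunit of chlorophyll synthesis, had 25.2 and 32.1 FPKM in LN and 80.7 and 81.7 FPKM in HN (-1.48). With all 8 libraries in the fit, 4 photosystem and 5 C4 loci were called lower, and with 1 library left out 0 of either list.

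The 24 heat shock and chaperone loci held 8 falls and 1 rise (median -0.28), a share called of 37.5%, against 8.77% of all loci. CPN60I, a chaperonin, had 52.7 and 48.3 FPKM in LN and 150 and 149 FPKM in HN at XLOC_026919 (-1.55 ± 0.13, adjusted p = 0.0164), and 67.9 and 66.2 FPKM in LN and 162 and 147 FPKM in HN at its neighbour XLOC_026918 (-1.19). Another chaperonin gene, CPN60II (-1.04), the small heat shock gene hsp18f (-1.64), BIPE3 (-0.73) and the heat shock factor Hsf01 (-0.61) fell, and Hsf05 (0.93) rose. The small heat shock gene hsp22 had 20.7 and 23.8 FPKM in LN and 66.1 and 57.6 FPKM in HN (-1.43). Cytosolic ribosomal protein genes had a median of -0.71, and 32 of 34 lay below 0, while 4 were called lower: rpl19, with 50.2 and 53.2 FPKM in LN and 128 and 122 FPKM in HN (-1.26), rpl10 (-0.87), rpp2a-2 (-1.15) and rps13, with 133 and 146 FPKM in LN and 285 and 255 FPKM in HN (-0.94). The share called, 11.8%, was near the 8.77% of all loci, and 17 were called lower at equal totals. Of 9 translation factor genes 2 fell, the initiation factors TIF3A1 (-0.66) and EIF5 (-0.68).

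Under the values as deposited, no member was called among 29 core histone loci, most of which carry the name H4C7 or H3C2, or among 13 DNA replication loci, with medians of 0.23 and 0.13. At equal totals 7 histone, 4 replication, 3 D-type cyclin and 2 mitosis loci were called higher, and 0 lower. That scaling called 2123 of all 22614 loci tested higher and 1273 lower, and moved their median change to 0.17. The most abundant histone locus of the rule, his2a1, had 2032 and 2761 FPKM in LN and 2347 and 1764 FPKM in HN (0.22), H4C7 at XLOC_009899 a change of 0.46, the replication clamp gene pcna2 268 and 313 FPKM in LN and 259 and 220 FPKM in HN (0.28), and the ribonucleotide reductase gene RNRS3 214 and 263 FPKM in LN and 170 and 154 FPKM in HN (0.55). Of 16 mitosis and cytokinesis loci cyclin11 alone was called (6.25%, against 8.77% of all loci tested). Of 8 D-type cyclins and inhibitors cycD4 alone was called (12.5%). It had 18.5 and 22.9 FPKM in LN and 8.99 and 7.98 FPKM in HN (1.19 ± 0.16, limma adjusted p = 0.0265). Among 23 tubulin, actin and kinesin loci TUB8 rose (0.74) and ACT1 fell (-0.82), a share called of 8.70%, against 8.77% of all loci tested.

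The 4 proton pump loci called, of 6, were the plasma membrane ATPases pma1, with 6.99 and 7.09 FPKM in LN and 16.8 and 20.7 FPKM in HN (-1.29), mha4 (-0.77) and mha2 (-0.72), and the vacuolar pyrophosphatase vpp3, with 95.0 and 93.1 FPKM in LN and 160 and 173 FPKM in HN (-0.81); at equal totals pma1 alone was called. Primary wall cellulose synthases fell at 3 of 9 loci, CesA-7 with 7.61 and 7.54 FPKM in LN and 17.9 and 19.9 FPKM in HN (-1.21), CesA-2 (-0.61) and CesA-9 (-0.80), of which CesA-7 alone was called at equal totals. The brittle stalk 2-like gene Bk2L3 fell (-0.66), the single call among 16 secondary wall and lignin loci (6.25%, against 8.77% of all loci tested). At equal totals 1 of those loci was called higher and 3 lower. The beta-expansin expB6 fell to 0.0459 and 0.143 FPKM in LN, against 1.60 and 1.78 FPKM in HN (-1.30). It was the single call of 9 expansins (11.1%), whereas 3 expansins were called higher and 1 lower at equal totals. None of 7 plasma membrane aquaporins was called, against 2 called higher at equal totals, with means of 468 FPKM in LN and 362 FPKM in HN for PIP1-1 (0.36) and a change of 0.70 for PIP1-2, and of 10 other aquaporins TIP4-1 rose (1.03) and TIP4-4 fell (-1.28). CSLD1 (0.32), CslF6-1 (0.21), ccoaomt1 (-0.51) and CCOAOMT2 (0.02) were the most abundant of 2 lists, wall remodelling and phenylpropanoid synthesis, that held no call.

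Among genes of carbon use, the sucrose synthase gene sus1, which splits sucrose for use in the cell, was the most abundant locus called, with 1199 and 1270 FPKM in LN and 2879 and 3078 FPKM in HN (-1.27 ± 0.25, adjusted p = 0.0488). It was the single call among 6 tested sucrose, invertase and trehalose loci, and it was lost with all 8 libraries in the fit. The leaf starch gene agpsl1, of ADP-glucose pyrophosphorylase, fell (-0.60), a call lost at equal totals. The ferritin gene FER1, which stores iron, rose to 161 and 185 FPKM in LN, against 71.7 and 85.4 FPKM in HN (1.13). The phospholipid transfer gene plt2, at a locus that overlaps another, fell to 16.2 and 19.0 FPKM in LN, against 65.9 and 78.6 FPKM in HN (-1.98). Its relative plt1 fell to 34.9 and 44.5 FPKM in LN, against 142 and 118 FPKM in HN (-1.69), while CER1, named for an Arabidopsis gene of wax alkane synthesis, rose to 45.4 and 52.6 FPKM in LN, against 24.0 and 22.7 FPKM in HN (1.04).

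The 4 calls among 36 redox and glutathione loci (11.1%, near the 8.77% of all loci tested) were falls. They were the superoxide dismutase gene sodB, with 21.0 and 19.1 FPKM in LN and 43.8 and 39.0 FPKM in HN (-1.01), and the glutathione transferase genes gst9 (-1.23), GST26 (-0.90) and GST4 (-1.25). Of 9 benzoxazinoid and terpene loci BX4, a cytochrome P450 of benzoxazinoid synthesis, fell to 58.1 and 76.7 FPKM in LN, against 130 and 129 FPKM in HN (-0.95), and the beta-glucosidase gene glu2 to 0.103 and 0.101 FPKM in LN, against 2.16 and 2.56 FPKM in HN (-1.61). Of 26 senescence and autophagy loci 7.69% were called, also near that share: see2b, a vacuolar processing protease gene, rose (0.63) and cys1 fell (-0.75). ZCN3, a relative of the flowering regulators FT and TFL1, had 7.68 and 8.21 FPKM in LN, against 30.7 and 18.1 FPKM in HN (-1.46). None of 11 phosphate and sulfate supply loci reached 1 FPKM.

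The largest changes of all lay in loci without a gene name, most of them short. GRMZM5G803276 (1573 bases, chromosome 7, 42347267 to 42348839) was listed at 0 in both LN libraries and at 67.7 and 100 FPKM in HN (adjusted p = 0.00283), and Novel_91 (827 bases) at 0 in LN and at 63.7 and 44.5 FPKM in HN. GRMZM2G560551 (180 bases) was listed at 0 in LN and at 333 and 119 FPKM in HN, Novel_1793 (223 bases) at 0 in LN and at 33.4 and 47.2 FPKM in HN, and Novel_3157 (212 bases) at 0 in LN and at 25.4 FPKM in both HN libraries. The 5 largest rises, Novel_1837, Novel_3149, Novel_302, GRMZM2G567512 and Novel_3141, were 215 to 235 bases long and listed at 0 in both HN libraries, with 163 and 84.2 FPKM in LN for Novel_1837 and 29.7 and 27.6 FPKM in LN for Novel_302. An exact 0 can be a failed estimate in such a table, so no fold is given. In all 51 called loci were listed at 0 in both libraries of a group, 20 in LN and 31 in HN. They came from 104 tested loci at 0 in both LN libraries and 139 at 0 in both HN libraries. Such loci passed the filter of 1 FPKM only through the other group, so the filter set their direction. The 51 called had a median span of 509 bases, against 4108 bases for all loci tested. Among longer loci, chosen after their values were seen, GRMZM2G014844 (4004 bases, chromosome 10, 34733949 to 34737952) had 78.7 and 88.3 FPKM in LN and 4.31 and 6.72 FPKM in HN (3.72 ± 0.21, adjusted p = 0.00968), and GRMZM2G089493 (1246 bases) 0.624 and 0.231 FPKM in LN and 15.0 and 20.7 FPKM in HN (-3.72).

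**Figure D4:**
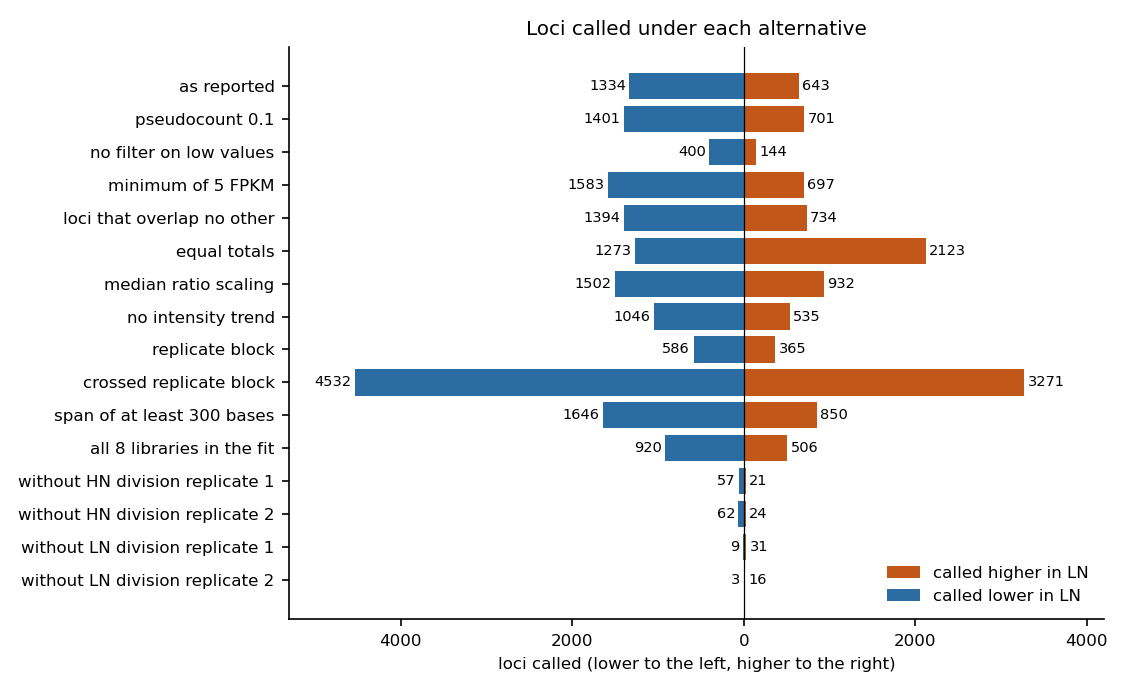
Number of loci called higher (right) and lower (left) in LN as reported and under each alternative. Counts range from 3 lower and 16 higher without LN replicate 2 to 4532 lower and 3271 higher with replicate numbers crossed.

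The response of the division zone was set against that of the elongation zone, whose 4 libraries are separate. Of the 643 loci called higher in the division zone, 81.3% also had a higher mean log2 value in LN than in HN elongation zones, against 53.7% of all loci tested. Of the 1334 called lower, 90.0% were lower in LN elongation zones, against 45.5% of all. The difference between the zones was called at 70 of 24706 loci (0.283%), of which 21 were called higher and 18 lower in the division zone. For bHLH116 the change was larger in the division zone by 2.66 ± 0.24 (adjusted p = 0.0221), since LN elongation libraries had 0.509 and 0.365 FPKM and HN elongation libraries 0.188 and 0.222 FPKM. In limma it was not called at a minimum of 5 FPKM (adjusted p = 0.0909) or with the replicate number as a block (adjusted p = 0.0693). With 1 division zone library left out the bHLH116 difference was 2.56 to 2.77, and some of those fits did not call it. For yab14 the change was larger in the division zone by 2.11 ± 0.24 (adjusted p = 0.0376), with 0.0866 and 0.136 FPKM in LN and 0 FPKM in both HN elongation libraries. That difference was 1.37 and not called with a pseudocount of 0.1 (adjusted p = 0.212), nor was it called at a minimum of 5 FPKM (adjusted p = 0.0711) or with any 1 division zone library left out (adjusted p from 0.0868 to 0.136), all in limma. HB, lox1, MPAO, LOB14 and GLK44 fell in the division zone and had elongation zone changes of like sign, with no difference called; HB, for one, was listed at 0 in both LN elongation libraries and at 9.18 and 10.2 FPKM in HN. The count of differing loci moved with the libraries used. It was 3746 without HN elongation replicate 1, 30 without LN division replicate 2, and 25 and 28 without HN division replicates 1 and 2. The HN elongation libraries had a median SD of 0.273 on the log2 scale, against 0.0975 to 0.157 in the other groups.

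**Figure D5:**
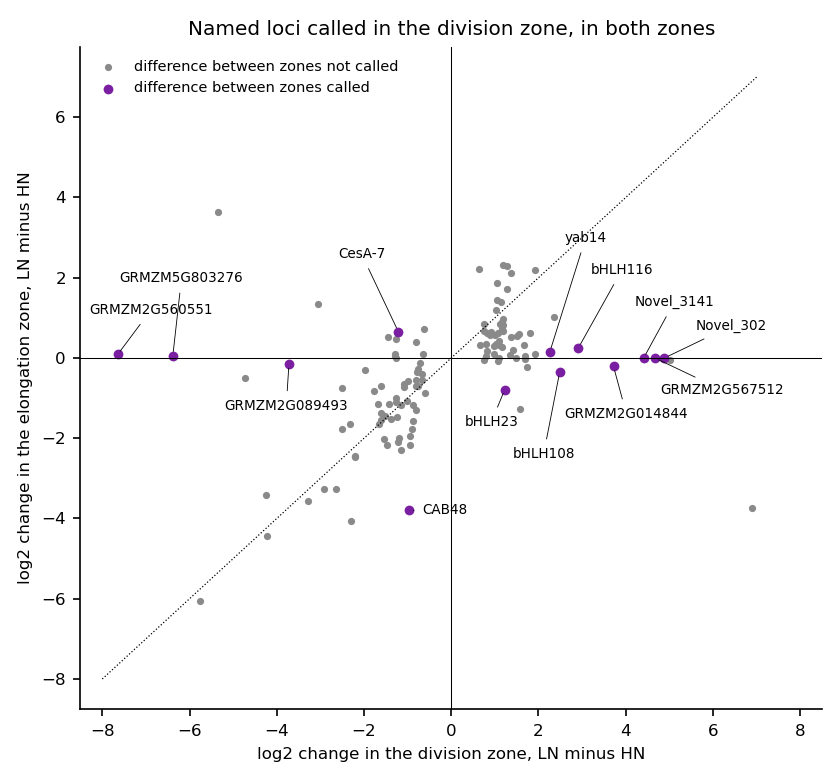
Log2 change (LN minus HN) in the elongation zone against that in the division zone for the 127 named loci called in the division zone; the dotted line marks equal changes. The 13 labelled loci, whose difference between zones was called, include bHLH116, yab14 and bHLH108, whose elongation zone changes were 0.25, 0.15 and -0.35.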

How the data were processed

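The deposited table held 1 value per locus and library, judged to be FPKM from the values themselves since the sources used here do not name the unit; the tools TopHat2 and edgeR and the genome build B73 RefGen_v3 are listed, without versions or roles, per the submitters' processing notes. The authors' FPKM values were used as deposited, after joining 44070 lines into 43110 loci. FPKM keep no read numbers, so depth is unknown and no count test was made. Values were turned into log2(FPKM + 1) and LN was compared with HN over the 4 division zone libraries in limma 3.58.1 (R 4.3.3) with an intensity trend, no covariate, a minimum mean of 1 FPKM in either group, and Benjamini-Hochberg adjustment over all 22540 loci at 0.05. The difference between zones was a contrast of all 8 libraries. The fit was tested on simulated data. Figures and tables used Python 3.11.15, numpy 2.4.6, pandas 2.3.3 and matplotlib 3.10.9. Gene names came by identifier from the RefSeq gene table of assembly Zm-B73-REFERENCE-NAM-5.0, which matched 18470 loci and gave an informative name to 2745; coordinates are those of the deposited table.

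Gene lists were made by matching names. Named loci were the 10 largest called rises and falls with an informative name and a mean of 5 FPKM or more in LN or HN, the up to 4 called members of smallest p in each list (the 2 most abundant where none was called) and the 5 largest called rises and falls without a name. Further called members are named from the lists, and 2 long unnamed loci were added after their values were seen. The comparison, members and lists were chosen with earlier results of these data known. Alternatives changed the pseudocount, filter, scaling, loci kept, variance model, replicate block and libraries. Same-numbered libraries did not deviate together, so the numbers were not treated as pairs.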

Additional observations from a re-analysis of the deposited data

Results flagged for a closer look

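At 13 named loci the response to low nitrogen differed between the zones by the test of the difference itself (limma over 8 libraries, adjusted p below the 0.05 threshold). Values below are the log2 change in the division zone minus that in the elongation zone. The cause was not tested.

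The bHLH factors bHLH116, bHLH108 and bHLH23 had differences of 2.66, 2.84 and 2.01. In the elongation zone bHLH108 had 1.04 and 1.05 FPKM in LN and 1.64 and 1.59 FPKM in HN, and bHLH23 had 9.02 and 11.1 FPKM in LN and 18.2 and 17.9 FPKM in HN, so their LN means lay below their HN means there and above them in the division zone. The YABBY factor yab14 had a difference of 2.11.

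CesA-7, a cellulose synthase gene, had a difference of -1.87, with 75.7 and 77.5 FPKM in LN and 54.3 and 42.9 FPKM in HN elongation zones. CAB48 had a difference of 2.83, with 7.82 and 4.1 FPKM in LN and 87.2 and 97.8 FPKM in HN elongation zones, at a locus of 4 identifiers.

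Among unnamed loci the differences were -7.73 for GRMZM2G560551, -6.44 for GRMZM5G803276, 4.89 for Novel_302, 4.67 for GRMZM2G567512, 4.41 for Novel_3141, 3.93 for GRMZM2G014844 and -3.57 for GRMZM2G089493. Novel_302, GRMZM2G567512 and Novel_3141 were listed at 0 in all 4 elongation libraries. GRMZM2G089493 had 1004 and 1352 FPKM in LN and 1112 and 1506 FPKM in HN elongation zones. With the replicate number as a block 3 of the 13 differences were called, without 1 division zone library 5 or 6, without 1 LN elongation library 7 or 8, and without HN elongation replicate 2, 9. None changed sign under any of these, but the block left each difference as it was and could not turn a sign. The differences called were large against the spread between replicates, so leaving out 1 library could hardly turn one either.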

How the results depend on the processing

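The loci called higher and lower numbered 643 and 1334. They were 144 and 400 with no filter on low values, 2123 and 1273 at equal totals, and 365 and 586 with the replicate number as a block; the cause was not tested. Same-numbered libraries had deviations correlated at -0.194, and with the numbers crossed, a pairing chosen after seeing the data, 3271 and 4532 were called. Leaving out 1 library left 16 to 31 higher and 3 to 62 lower. The pseudocount, a minimum of 5 FPKM, overlap, median ratio scaling, no trend, all 8 libraries and, added after seeing the data, a span of at least 300 bases kept both counts within 1.5 times. The difference between zones was called at 70 loci, at 152 with no filter, 34 at a minimum of 5 FPKM, 257 at equal totals, 7 with the replicate block, and 25 to 3746 with 1 library left out.

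Of 127 named loci called, none changed sign under any alternative, but only the scalings could have turned a sign. LN and HN libraries did not overlap in any called locus, so leaving out a library or changing the pseudocount could not. The filters, variance models and blocks left each log2 change as it was. Of the 127, 86 were called with the replicate block (auxin 1 of 9, photosystems 6 of 11, yab14's zone difference lost at an adjusted p of 0.0954 in limma), 117 at equal totals and 88 with all 8 libraries. At equal totals RR6, GATA, CesA-2, CesA-9, vpp3, mha4, mha2, agpsl1, TIF3A1 and ACT1 were not called. Sign changes were confined to loci that were not called: at equal totals NAC120 (0.014), NAC12 (0.089), DWF1 (0.15) and brd103 (0.026), and, as ranges over the fits with 1 library left out, KNOX6 (-0.027 to 0.087), NAC12 (-0.20 to 0.0043), WRKY109 (-0.0078 to 0.42), DWF1 (-0.18 to 0.087), his2a1 (-0.0016 to 0.44), CslF6-1 (-0.017 to 0.44) and CCOAOMT2 (-0.12 to 0.15). With 1 library left out the lone sample of a group is assumed to vary like the other group. Read depth is unknown, so what it limits could not be given.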
